A study of Homo sapiens with 4 samples.

Results

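The nuclear-encoded genes of oxidative phosphorylation were examined in DAOY, an established human medulloblastoma cell line, after short hairpin RNAs (shRNAs) were used to lower ZFX, a zinc finger transcription factor. Members were chosen by gene symbol: every gene whose symbol starts with NDUFA, NDUFB, NDUFC, NDUFS, NDUFV, UQCR, COX4, COX5, COX6, COX7, COX8 or ATP5, without the NDUFAF assembly factors. The rule found 79 of 18417 genes that have a probe set annotated with exactly 1 symbol, and for a gene with several such probe sets the one with the highest mean was used. Subunit genes without such a probe set, among them NDUFS5, NDUFC2 and ATP5F1E, are therefore not in the set. Of the 79 members, 76 are protein-coding and were assigned by symbol: 34 to complex I, 7 to complex III, 17 to complex IV and 18 to complex V. This counts ATP5IF1, an inhibitor, in complex V and COX7A2L, a factor known from supercomplexes, in complex IV. The other 3 carry a matching symbol but are not protein-coding: the pseudogenes UQCRBP1 and ATP5F1EP2 and the divergent transcript NDUFV1-DT. They were kept in the total and left out of the complexes.

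The study has 4 microarrays. ZFX knockdown cells carried 1 of 3 hairpins against ZFX, named H2, H3 and H4, and each hairpin has 1 array. The remaining array is from control cells with a non-targeting scrambled hairpin. All cells, controls included, had a lentiviral exposure of 16 to 24 hours, 48 hours of recovery and about 48 hours in puromycin at 2 ug/mL, which removes cells without the virus, so every comparison is between infected and selected cells of 1 cell line. Every hairpin is set against the same scrambled array, so the comparisons of H2, H3 and H4 share their control and any peculiarity of that array enters each of them.

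ZFX itself read 744.9 with H2, 749.6 with H3 and 995.6 with H4, against 1429.6 with the scrambled hairpin. Log2 differences are knockdown minus scrambled throughout, and that of ZFX averaged -0.80 ± 0.24 (SD over the 3 hairpins). No knockdown array overlapped the scrambled one, and ZFX was not past the threshold over all genes (limma adjusted p = 0.9998). The filter used here was a mean log2 intensity at or above the 25th percentile of genes. Of the markers used to check the cell type, 5 of 7 neural stem and glial genes passed it. So did 7 of 8 genes of the granule cell lineage or medulloblastoma with a value. Nestin (NES), OLIG2 and GLI1 did not. ATOH1 passed the filter narrowly, at percentile 25.45, as did the muscle gene MYH7, at 26.68. None of the 3 epithelial, 3 haematopoietic and 3 endothelial markers with a value passed it, and all 3 muscle markers did.

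Oxidative phosphorylation makes ATP in the inner mitochondrial membrane. Complex I takes electrons from NADH, complex III passes them from ubiquinol to cytochrome c, and complex IV (cytochrome c oxidase) hands them to oxygen. These complexes pump protons across the membrane, and the returning protons drive complex V, the ATP synthase. Most subunits are encoded in the nucleus and imported, while a few central ones are encoded in mitochondrial DNA and were not used here. Nuclear respiratory factor 1 (NRF1) and the ETS factor GABPA are known activators of many of these genes.

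For each complex, the promoter of the subunit gene with the highest mean difference was read, because the perturbed protein is a DNA-binding factor. The sequences are from the RefSeq table for GRCh38.p14 and hold the 250 bases before the annotated start, 5′ to 3′ on the gene's strand. They lie at chr5:53560389-53560638 (plus strand, NDUFS4), chr1:46303448-46303697 (plus strand, UQCRH), chrX:77899218-77899467 (plus strand, COX7B) and chr4:674277-674526 (minus strand, ATP5ME). Capitals mark a match, on either strand, to AGGCCT (a reported core of ZFX sites, the same on both strands), CATGCGC (within the NRF1 motif) or CCGGAAG (a motif of ETS factors).
NDUFS4: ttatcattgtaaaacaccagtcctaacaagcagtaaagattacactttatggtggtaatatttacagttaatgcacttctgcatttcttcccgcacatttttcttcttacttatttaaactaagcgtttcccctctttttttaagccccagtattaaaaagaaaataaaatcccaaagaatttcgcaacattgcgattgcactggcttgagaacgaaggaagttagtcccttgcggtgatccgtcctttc
UQCRH: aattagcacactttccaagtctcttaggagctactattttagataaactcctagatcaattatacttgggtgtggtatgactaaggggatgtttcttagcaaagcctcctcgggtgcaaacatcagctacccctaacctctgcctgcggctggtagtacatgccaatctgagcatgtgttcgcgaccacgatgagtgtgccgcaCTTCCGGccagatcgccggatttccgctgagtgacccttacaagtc
COX7B: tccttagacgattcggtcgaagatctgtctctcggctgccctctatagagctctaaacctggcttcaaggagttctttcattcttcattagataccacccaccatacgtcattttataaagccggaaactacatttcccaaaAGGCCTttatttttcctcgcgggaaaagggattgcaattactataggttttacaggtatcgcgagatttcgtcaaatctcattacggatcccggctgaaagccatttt
ATP5ME: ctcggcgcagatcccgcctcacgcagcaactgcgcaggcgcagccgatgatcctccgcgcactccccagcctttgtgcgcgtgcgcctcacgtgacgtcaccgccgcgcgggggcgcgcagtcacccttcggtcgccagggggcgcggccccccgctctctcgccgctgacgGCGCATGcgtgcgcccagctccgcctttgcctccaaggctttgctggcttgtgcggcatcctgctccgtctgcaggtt

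The COX7B promoter holds 1 AGGCCT, whose first base is 108 bases before the start. The UQCRH promoter holds 1 ETS match and the ATP5ME promoter 1 NRF1 match, while none of the 3 motifs is in the NDUFS4 window. Promoters of 65 of the 76 protein-coding members were matched by gene number, in windows of 300 bases that run 50 bases past the start, and a gene with several windows counted once; in this longer window ATP5ME also has an ETS match. AGGCCT was in 6 of the 65 (9.23%), against 13.0% of the 27305 genes in the promoter table and 13.8% of its 13770 protein-coding genes on the array. The 6 genes are COX7B, NDUFB7, NDUFB8, NDUFV2, ATP5F1C and ATP5MC2. On the arrays 2 of them were above the scrambled array for each hairpin, 2 were below it and the others lay on both sides. All genes had 17.0% above and 31.3% below, and all members 40.5% and 7.59%. CATGCGC was in 13 of 65 promoters (20.0%, against 5.30% in the table and 6.89% of the protein-coding genes on the array). CCGGAAG was in 19 of 65 (29.2%, against 12.2% and 17.1%). Of the 13 genes with CATGCGC, 6 were above the scrambled array with every hairpin and 2 below. Of the 19 with CCGGAAG, 9 were above and 0 below. Whether genes with a motif differ from other members was not tested. A match describes the letters of the window and does not show a bound factor.

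Over all 79 members the differences were small and lay more often above the scrambled array than below it. All 3 knockdown arrays were above the scrambled array for 32 members (40.5%), against 17.0% of all 18417 genes. All 3 were below it for 6 members (7.59%), against 31.3% of all genes, and 41 members lay on both sides. The median member stood at 103.6% of the scrambled level (median log2 difference 0.051), where the median over all genes was -0.029. In bulk RNA, fewer cells of a kind and less RNA per cell cannot be told apart. Members are mostly bright on the array (68 of 79 are at or above the 50th intensity percentile), and among all genes at or above that percentile the shares were 15.7% above and 31.8% below. Members were counted with no filter; 75 of 79 would pass the filter at the 25th percentile.

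Other scalings of the arrays moved these counts without turning them. Members above and below numbered 44 and 3 after centring each array on its median, against 25% of all genes above and 22.9% below. They numbered 40 and 4 after a further quantile normalization (all genes 22.4% and 25.6%) and 38 and 4 after cyclic loess (all genes 21.7% and 26.3%). Under all 4 scalings 31 members stayed above the scrambled array and 3 stayed below it (NDUFB2, ATP5MC3 and the noncoding NDUFV1-DT). The median of the members exceeded that of all genes by 0.080 as deposited, 0.084 with quantile normalization and 0.080 with loess. Centring shifts all genes of an array alike, so it could not change this difference (0.080).

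No member passed the test. In limma's moderated test of the 3 knockdown arrays against the scrambled one, 0 of the 75 members kept had an adjusted p under 0.05 (smallest adjusted p = 0.9998), as did 0.0% of the 13813 genes tested. At an unadjusted p under 0.05 there was 1 member, COX7B, against 3.23% of all genes tested. With 4 arrays, an exact permutation of which array stands alone cannot give a two-sided p below 0.25. The values below are therefore descriptions, with SDs over the 3 hairpins, and they leave out the error of the lone scrambled array.

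Complex IV held the member furthest from the scrambled array. COX7B encodes a small membrane-spanning subunit of cytochrome c oxidase. Its probe set (8168470) read 988.1 with H2, 581.3 with H3 and 835.5 with H4, against 316.0 on the scrambled array. Every knockdown array was far above the scrambled one, and H3 was the lowest of the 3. The levels were 312.7% of the scrambled level for H2, 184.0% for H3 and 264.4% for H4, a mean of 2.48-fold (log2 difference 1.31 ± 0.39, SD, n = 3; SE 0.31, unadjusted p = 0.00725 and adjusted p = 0.9998 in limma). Only 1 of 18417 genes had a higher mean difference. COX7B was also the only member at least 1.2-fold above the scrambled array with every hairpin, as were 0.614% of all genes, and it was at least 1.5-fold above with every hairpin, as were 0.038%. No member was 1.2-fold below with every hairpin, against 2.41% of all genes.

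The protein-coding genes directly beside COX7B on the X chromosome lay close to the scrambled level. MAGT1, the protein-coding neighbour on one side, read 1270.7, 1369.4 and 1381.6 with H2, H3 and H4, against 1337.9 on the scrambled array. ATP7A, the neighbour on the other side, read 620.0, 681.0 and 719.1, against 655.7. Both lay on either side of the scrambled array, with mean log2 differences of 0.002 ± 0.066 and 0.036 ± 0.11 (SD, n = 3). Further away on the same chromosome, ATRX was below the scrambled array for each hairpin (-0.16 ± 0.13) and PGK1 lay on either side (0.006 ± 0.060). These genes were looked at after the value of COX7B was known. MAGT1 and ATRX each have 2 probe sets, and only the one with the higher mean is given.

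COX7B2, a related isoform known from testis and encoded on chromosome 4, came next in complex IV. It read 1225.6 with H2, 1038.0 with H3 and 721.7 with H4, against 704.8 on the scrambled array. H2 and H3 were well above the scrambled array, and H4 nearly met it, at 102.4% of its level. The mean log2 difference was 0.46 ± 0.39 (SD, n = 3). Without H4 it was 0.68 and without H2 it was 0.30. COX7B and COX7B2 resemble each other, and how far their probes tell them apart was not tested. With H2, H3 and H4, COX7B2 stood at 173.9%, 147.3% and 102.4% of the scrambled level. In the same order COX7B stood at 312.7%, 184.0% and 264.4%.

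**Figure D1:**
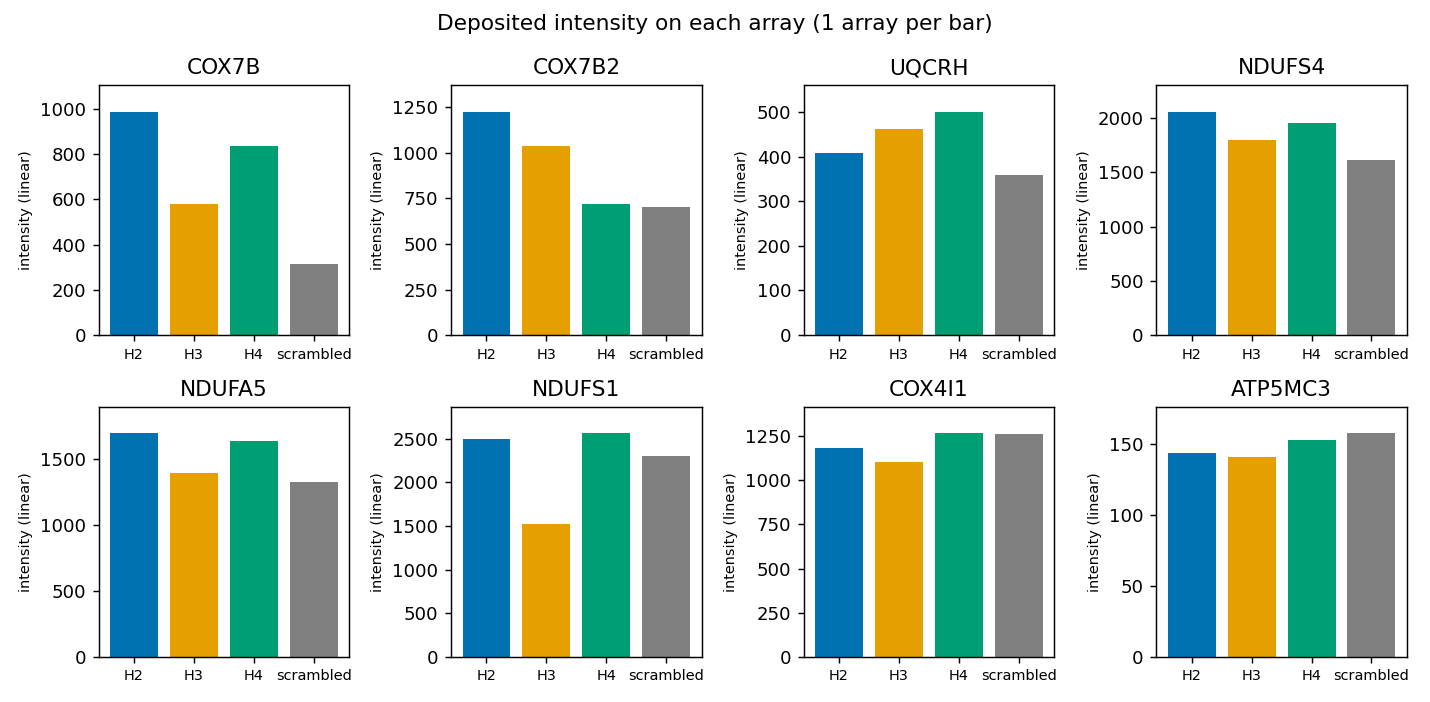
Deposited intensity (linear scale, vertical axis from 0) of 8 subunit genes on each of the 4 arrays (H2, H3, H4, then scrambled), 1 array per bar and no error bars. COX7B stands at 581.3 to 988.1 on the knockdown arrays, against 316.0 on the scrambled array, while NDUFS1 is low with H3 alone and COX4I1 differs little.

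Of the 17 genes of complex IV, 8 (47.1%) were above the scrambled array for every hairpin, against 17.0% of all genes. In this complex 1 gene (5.88%), COX6B2, was below it, against 31.3% of all genes. The median log2 difference of the complex was 0.082, and 0.051 over the 15 genes without COX7B and COX7B2. COX5B, a zinc-binding subunit on the matrix side, read 6537.9, 5666.0 and 6470.2 with H2, H3 and H4, against 5477.1 (113.4% on average). H2 and H4 were close to each other and H3 lay nearest the scrambled array. COX6A2, the form of subunit 6A known from heart and skeletal muscle, read 320.1, 317.7 and 286.3, against 274.6 (112.0%). Its widely expressed counterpart COX6A1 had a mean log2 difference of 0.082 ± 0.092 (SD, n = 3), mostly from H4. The other 3 genes above with every hairpin, COX7C, COX8A and COX6C, had mean log2 differences of 0.14, 0.11 and 0.099.

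Subunit 4, which has a regulatory role in the enzyme, had forms with arrays on either side of the scrambled level. COX4I1, its common form, read 1184.4, 1102.2 and 1265.2 with H2, H3 and H4, against 1260.4 on the scrambled array, so H4 was level with it and the others lower. COX4I2, the form known from lung and from low oxygen, differed by 0.084, -0.12 and 0.014 on the log2 scale. COX7A2 differed by -0.17, 0.044 and 0.18, and COX7A2L, a factor known from the joining of complexes III and IV into supercomplexes, by -0.011, 0.079 and 0.049. COX6B1 differed by 0.17, -0.038 and 0.17. The tissue-restricted COX7A1, COX8C and COX6B2 lay below the intensity filter, with mean log2 differences of 0.051, 0.032 and -0.11, so for these dim genes a difference may not be detectable.

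**Figure D2:**
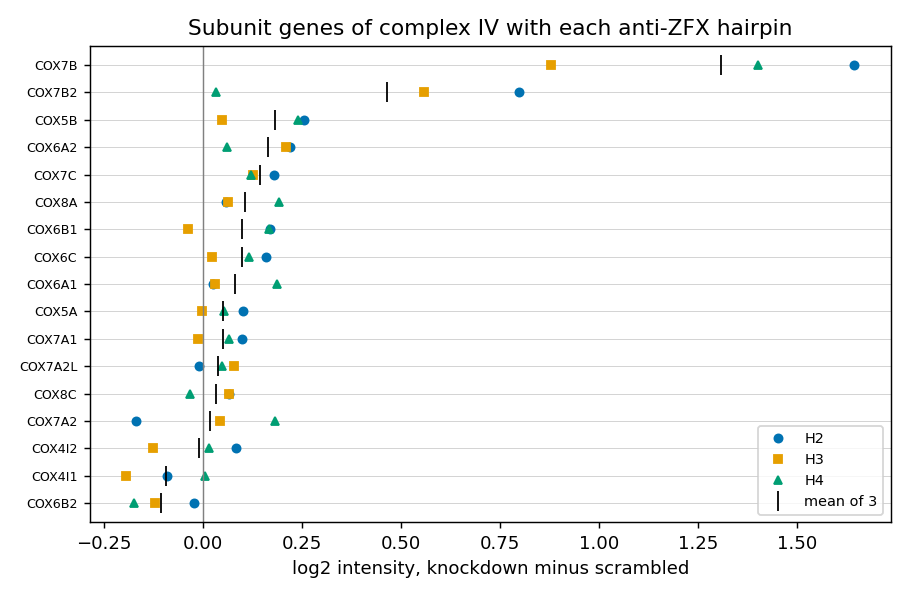
Log2 intensity on each knockdown array minus the scrambled array (horizontal axis) for the 17 complex IV genes (rows), with circles for H2, squares for H3, triangles for H4 and a bar at their mean. COX7B lies at 0.88 to 1.64 and COX7B2 at 0.034 to 0.80, while the mean of every other gene is within -0.11 to 0.18.

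Complex III, with 7 genes, had a median log2 difference of 0.036. UQCRH, the hinge protein that helps cytochrome c dock, read 407.2 with H2, 460.9 with H3 and 500.3 with H4, against 358.0 on the scrambled array. All 3 knockdown arrays were above it, H4 the most. Its mean was 127.0% of the scrambled level (log2 difference 0.34 ± 0.15, SD, n = 3; unadjusted p = 0.0897 in limma). UQCRC2, a core protein of the matrix side, read 8266.5, 7036.7 and 7518.5, against 6684.7, with H3 nearest the scrambled array. UQCR10, a small membrane subunit, was above it by a narrow margin (log2 difference 0.046 ± 0.015). The other 4 genes, UQCRC1, UQCRB, UQCRQ and UQCR11, lay on both sides. UQCRFS1, the Rieske iron-sulfur protein, was not analysed here.

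Among the 34 genes of complex I, 14 (41.2%) were above the scrambled array for each hairpin, against 17.0% of all genes. In this complex 2 genes (5.88%) were below it, against 31.3% of all genes. The median log2 difference of complex I was 0.041. The leading gene was NDUFS4, an accessory subunit of the NADH-oxidising arm. Its probe set (8105311) read 2058.0 with H2, 1802.1 with H3 and 1952.3 with H4, against 1612.8 on the scrambled array. The mean was 120.0% of the scrambled level (log2 difference 0.26 ± 0.096, SD, n = 3; unadjusted p = 0.116 in limma). A dimmer NDUFS4 probe set read 64.6, 71.0 and 82.8, against 70.8, and averaging both lowers the mean log2 difference to 0.15.

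NDUFA5, an accessory subunit of the peripheral arm, read 1693.6, 1397.2 and 1637.6 with H2, H3 and H4, against 1322.4 on the scrambled array (118.8% on average). NDUFB5 and NDUFB9, both of the membrane arm, averaged 116.8% and 113.2% of the scrambled level. The smallest of the 3 differences came from H3 in NDUFS4, NDUFA5, NDUFB5 and NDUFB9. On the lower side, NDUFB2, also of the membrane arm, read 580.8, 531.8 and 606.1, against 645.1 (88.7%), and NDUFB8 averaged 92.2%. NDUFB8 was only just below with H4 (log2 difference -0.005) and lay on both sides under each other scaling.

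The catalytic core of complex I had 6 nuclear genes with a value. Of these, 1 (16.7%), NDUFS3, was above the scrambled array with every hairpin, against 17.0% of all genes. The other 5 lay on both sides, and after centring NDUFV1 was above as well. The median log2 difference of the 6 was -0.003, against -0.029 over all genes. Among the 28 accessory genes 13 (46.4%) were above and 2 (7.14%) below, against 17.0% and 31.3% of all genes. The accessory median was 0.053. Whether core and accessory genes differ was not tested. NDUFS1, which carries several iron-sulfur clusters, read 2498.7 with H2, 1519.2 with H3 and 2560.5 with H4, against 2303.7. H3 alone was far below the scrambled array, at 65.9% of it, while H2 and H4 were above, so the mean log2 difference of -0.11 ± 0.43 turns to 0.13 without H3. NDUFV1, the subunit that binds NADH, differed by 0.23, -0.024 and 0.16 on the log2 scale. NDUFV2, NDUFS7 and NDUFS8, iron-sulfur subunits, had mean log2 differences of -0.022, -0.035 and 0.016.

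Complex V had a median log2 difference of 0.049 over 18 genes. With every hairpin 6 (33.3%) were above the scrambled array and 2 (11.1%) below it, against 17.0% and 31.3% of all genes. ATP5ME, a small membrane subunit, read 1264.7 with H2, 1173.6 with H3 and 1200.5 with H4, against 1046.9 on the scrambled array (115.8% on average, log2 difference 0.21 ± 0.055, SD, n = 3). ATP5F1D, the delta subunit of the rotating central stalk, read 2376.7, 2337.4 and 2282.7, against 2049.4 (log2 difference 0.19 ± 0.029). In both genes the 3 knockdown arrays were closer to each other than to the scrambled array. ATP5PD, of the peripheral stalk, had a mean log2 difference of 0.11 ± 0.019. ATP5MK, a small subunit known from the dimer of the enzyme, had 0.12 ± 0.057, but its second probe set (7936091) differed by -0.071, -0.055 and 0.12.

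The catalytic subunits of the F1 head stayed near the scrambled level. ATP5F1B, the beta subunit that makes ATP, read 14055.2 with H2, 13476.9 with H3 and 14031.3 with H4, against 13547.4. ATP5F1A, the alpha subunit, read 4311.0, 3985.3 and 4479.3, against 4052.5. For both, H2 and H4 were above the scrambled array and H3 was just below it. Of the genes for the c-ring, which encode the same mature protein, ATP5MC3 read 144.0, 141.4 and 153.0, against 157.7 (92.6%), and ATP5MC2 read 1565.7, 1609.8 and 1520.0, against 1623.2 (96.4%). ATP5MC3 stayed below under every scaling and ATP5MC2 under none but the deposited one. ATP5MC1 differed by 0.016, -0.15 and 0.12 on the log2 scale, and ATP5IF1, the inhibitor of the enzyme, by 0.001, 0.087 and -0.007.

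**Figure D3:**
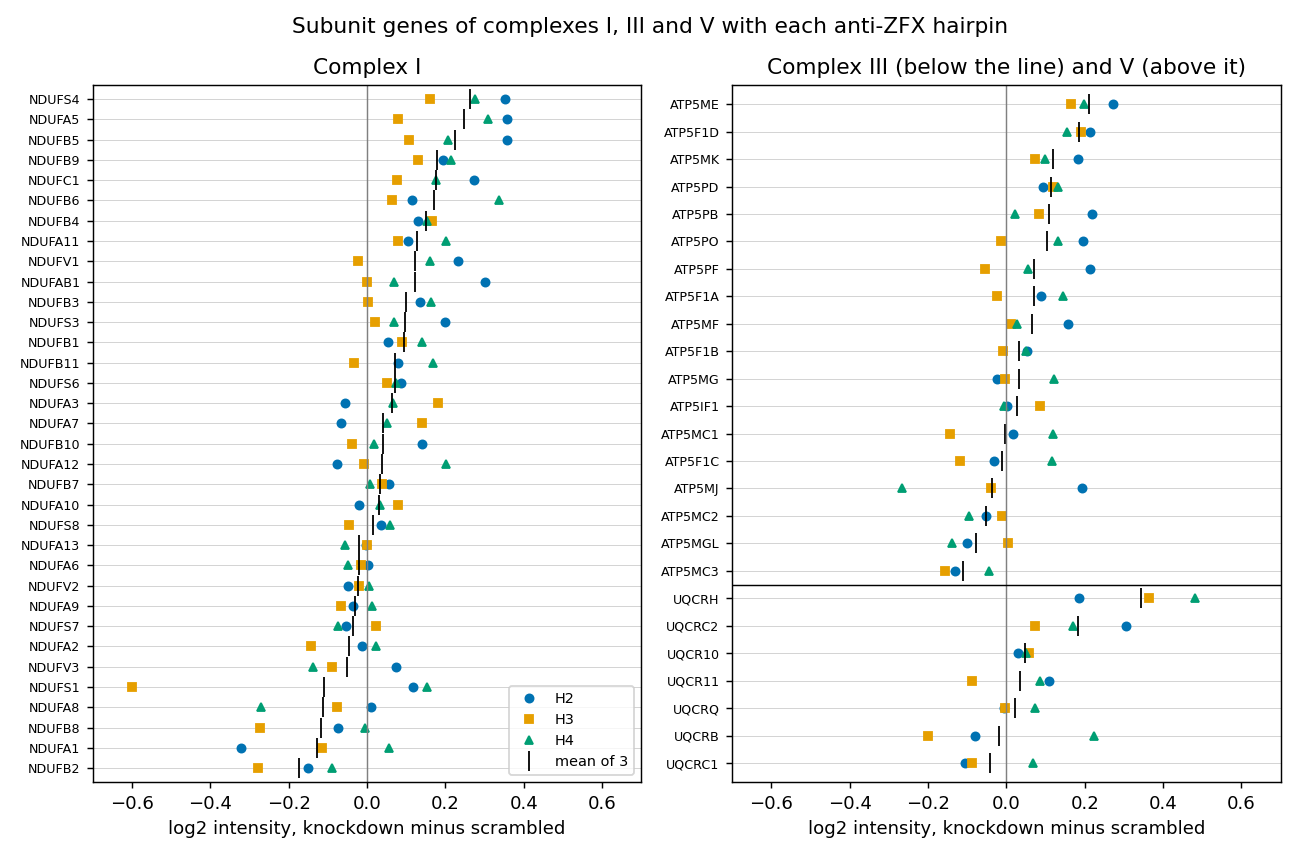
Log2 intensity on each knockdown array minus the scrambled array (horizontal axis) for the genes of complex I (left, 34 genes) and of complexes III and V (right, 7 and 18 genes), with circles for H2, squares for H3, triangles for H4 and a bar at their mean. Means run from -0.17 (NDUFB2) to 0.34 (UQCRH), and NDUFS1 has its H3 point at -0.60.

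The hairpins differed in how far the members lay from the scrambled array. The median over the 79 members was 0.080 for H2, against 0.002 for H3 and 0.069 for H4, where the medians over all genes were -0.020, -0.024 and -0.040. Members above the scrambled array numbered 53 for H2, 43 for H3 and 64 for H4 (67.1%, 54.4% and 81.0%), against 45.3%, 42.7% and 38.6% of all genes. H3 gave the lowest of the 3 differences for 43 members, H2 for 19 and H4 for 17. The same count was not made over all genes, so this order cannot be called particular to the members. ZFX stood at 52.1% of the scrambled level with H2, 52.4% with H3 and 69.6% with H4. Whether the members' differences follow the level of ZFX was not tested.

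Most members stayed within 1.2-fold of the scrambled array with each hairpin. With H2, 9 of 79 members were at least 1.2-fold above the scrambled array and 1 below, against 7.32% and 15.6% of all genes. With H3 there were 3 above and 3 below (all genes 4.78% and 7.62%), and with H4 6 above and 2 below (3.86% and 10.7%). In all, 61 of 79 members stayed within 1.2-fold of the scrambled array on every knockdown array. The same share was not counted over all genes, so it does not show that members were steadier than other genes. At 1.5-fold, 2 members were above with H2 (COX7B and COX7B2), 1 with H3 and 1 with H4 (COX7B in both), against 0.809%, 0.413% and 0.494% of all genes. On the lower side NDUFS1 with H3 was the only 1.5-fold difference, where 4.29%, 0.896% and 1.66% of all genes were that low with H2, H3 and H4.

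By complex, H3 had the lowest median in each of the 4 complexes. In the order H2, H3, H4 the medians of complex I were 0.066, 0.001 and 0.067, and for complex III they were 0.030, -0.002 and 0.085. For complex IV they were 0.100, 0.044 and 0.065, and for complex V 0.092, -0.005 and 0.077. The shares above the scrambled array with every hairpin were 41.2%, 42.9%, 47.1% and 33.3% for complexes I, III, IV and V. Over all genes the share was 17.0%. The count of 6 in complex V is 11 without H3, when fewer arrays have to pass. Differences between complexes were not tested.

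**Figure D4:**
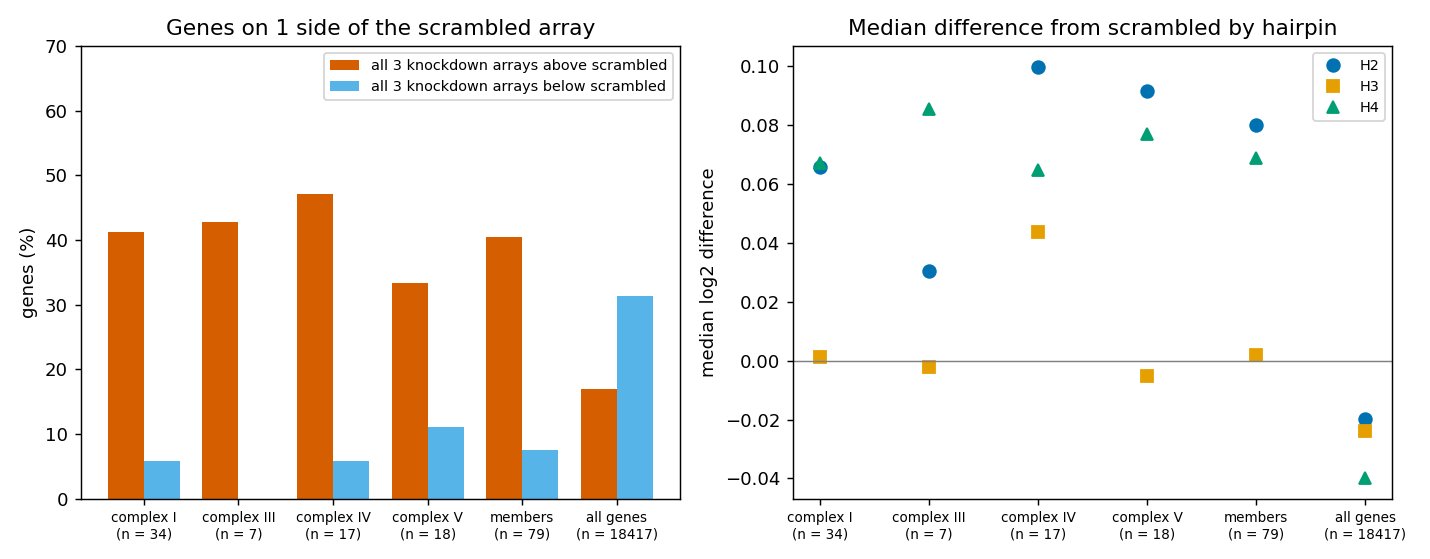
Left, percent of genes with all 3 knockdown arrays above (orange) or below (blue) the scrambled array, by complex, over all 79 members and over all 18417 genes. Right, median log2 difference from the scrambled array with H2 (circles), H3 (squares) and H4 (triangles); members show 40.5% above and 7.59% below, all genes 17.0% and 31.3%, and H3 has the lowest median in each complex.

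The 3 members that are not protein-coding were as mixed. The pseudogene UQCRBP1 was above the scrambled array with every hairpin (mean log2 difference 0.072 ± 0.062, SD, n = 3), ATP5F1EP2 differed by -0.067, 0.11 and 0.27, and NDUFV1-DT, below the intensity filter, was lower with every hairpin (-0.099 ± 0.048). Many subunit genes have processed copies in the genome, so probe sets may read related transcripts. The 2 probe sets annotated to NDUFB4 hold identical values, and both probe sets of COX6A1 gave nearly the same mean log2 difference (0.082 and 0.095).

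Other genes of the respiratory chain did not pass the test either. Of 3 complex II genes with a value, SDHA and SDHC were lower with every hairpin, each at 89.9% of the scrambled level, and SDHD was higher with every hairpin (115.1%). SDHD read 5256.5, 4209.1 and 5041.2 with H2, H3 and H4, against 4180.5. SDHC and SDHD each have 2 probe sets, and only the one with the higher mean is given. Cytochrome c (CYCS) was at 111.6% and above with every hairpin, while CYC1, a haem-bearing subunit of complex III, lay on both sides. Assembly factors, which help build the complexes but are no part of them, had 9 of 44 genes with a value above the scrambled array with every hairpin and 10 below, where all genes had 17.0% above and 31.3% below. They had a median log2 difference of -0.014, and 0 passed limma. SCO2, which delivers copper to complex IV, was at 123.9% (log2 difference 0.31 ± 0.055) and COA3, another complex IV factor, at 78.9% (-0.34 ± 0.22). For complex I, NDUFAF4 was at 120.9% and ACAD9 at 85.6%. TTC19 (81.9%) and UQCC2 (104.3%) were the ends of the complex III list, and TMEM70 (88.0%) and ATPAF1 (98.4%) those of complex V.

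Among 20 genes for transcription factors of these subunits and for upkeep and expression of mitochondrial DNA, 5 were above the scrambled array with every hairpin and 3 below (all genes 17.0% and 31.3%), and 0 passed limma. The median log2 difference was 0.046, made of 0.16 for H2, 0.015 for H3 and -0.045 for H4. NRF1 read 545.8 with H2, 577.7 with H3 and 577.9 with H4, against 663.3 on the scrambled array, so it was at 85.5% and lower with every hairpin. NRF1 was named after its values were seen. MTERF3, a negative regulator of mitochondrial transcription in mouse, was at 83.2% (-0.27 ± 0.069). GABPA had the highest mean, 0.24 ± 0.31, with log2 differences of 0.52, 0.29 and -0.087, so H4 went the other way. GABPA has 2 probe sets, and only the one with the higher mean is given.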

How the data were processed

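Total RNA (250 ng per sample) from 4 DAOY samples was labelled and hybridised to 1 whole-transcript array each. The authors deposited 1 intensity per probe set and array, which came from RMA, per the submitters' processing notes. A version, the options and a genome build were not given in the sources used here. RMA gives log2 values, but the deposited intensities are linear (medians 226.0 to 232.3), so log2 was taken. Medians and highest values differ slightly between arrays, so the deposited values are not on identical distributions, and levels are relative within an array. No scan date, detection call or background was used here. Precision is limited by the number of arrays.

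Of 33297 probe sets, 19460 have exactly 1 symbol in the platform annotation, 1754 have several and were not used for genes, and the rest are unnamed here. Of the 19460, 19429 were found in RefSeq's gene table through their gene number.

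limma 3.58.1 in R 4.3.3 (lmFit, eBayes with an intensity trend) compared the 3 hairpin arrays with the scrambled one, with Benjamini-Hochberg adjustment over the 13813 genes whose mean log2 intensity reached the 25th percentile (6.78). The spread is estimated from the hairpin arrays and taken to hold for the scrambled one too, which leaves 2 residual degrees of freedom. Nothing in the labels says that the samples are separate cultures, so p-values measure only the spread between these arrays. The fit was also run on simulated data in which all 4 arrays were drawn with the spread between hairpins. Such data cannot show whether the scrambled array varies as the hairpin arrays do. Single hairpins have no test. The members, lists and tests were chosen with earlier results of these data known. Genes named by rule are ZFX and, per complex, the 4 highest and 3 lowest mean differences among genes on 1 side. Catalytic subunits, isoforms, ATP5IF1 and the ends of each related list were also named by rule. Further genes are named to complete a count or list, as markers, as neighbours of COX7B or for their probe sets. Alternatives covered scaling, filter, probe sets, trend and each hairpin left out. Python 3.11.15, pandas 2.3.3 and matplotlib 3.10.9 were used.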

Additional observations from a re-analysis of the deposited data

How the results depend on the processing

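The limma count of members past the threshold was 0 under each of 10 alternatives (filters, scalings, trend, probe sets, and each hairpin left out); at an unadjusted p under 0.05 it was COX7B, joined by UQCRH without H2 and by COX7B2 without H4. The medians over all members, over each of the 4 complexes and with each hairpin kept their sign under the alternatives run for them, while the median over all genes was 0.003 after centring, against -0.029 as deposited. Medians of the complex I core, the assembly factors and the other related lists were not recomputed. With centring, members below the scrambled array numbered 3, complex I genes below 1, complex IV genes below 0, complex V genes above 11 and below 1, and the complex IV median was 0.11. With quantile normalization the medians of complexes I and III were 0.082 and 0.083, and 1 gene was below in complex I and 1 in complex V, as with loess. The filter at the 25th percentile left 0 complex IV genes below, since COX6B2 is dim. Leaving out 1 hairpin at a time gave 34 to 47 members above and 9 to 17 below (10 without H2, 17 without H4). Complex I had 14 to 19 above and 4 to 7 below, and complex III 3 to 4 and 0 to 3. Complex IV had 9 to 12 and 1 to 2, and complex V 6 to 11 and 3 to 4. Fewer arrays have to pass with a hairpin left out. The same counts were not made over all genes, so these ranges cannot show whether members differ from other genes. The members' median was then 0.045 to 0.080, with 0.042 to 0.070 for complex I, 0.012 to 0.072 for complex III, 0.062 to 0.11 for complex IV and 0.031 to 0.080 for complex V. Over the 76 protein-coding members alone the median was 0.049, and without COX7B and COX7B2 the medians by hairpin were 0.075, 0.001 and 0.069; both alternatives were chosen after seeing the data. No paired analysis was possible because there is 1 scrambled array and the labels give no shared replicate numbers.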

Other observations

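In all, 7 probe sets list several symbols, at least 1 of which starts as the rule asks (readthrough symbols included), and were not used for any gene above. The subunit genes NDUFS5, NDUFC2 and ATP5F1E are listed in these alone and so are not among the 79 members. Of the 7 probe sets, 2 were above the scrambled array with every hairpin, 1 was below it and 4 lay on both sides. Their mean log2 differences ran from -0.24 to 0.28. All genes had 17.0% above and 31.3% below, and 7 probe sets are too few to set against these shares.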
